A study of Rattus norvegicus with 20 samples.

Results

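miR-378a is a microRNA (miRNA) whose hairpin yields the mature arms rno-miR-378a-3p and rno-miR-378a-5p. Both arms were followed in small RNA from rat adBNST, the anterodorsal part of the bed nucleus in the stria terminalis, a region of the extended amygdala involved in anxiety, and they are 2 of the 617 mature miRNAs with reads. Their reads were found by name, and the arms had been chosen by their summed counts in these same libraries, in particular the SI and GH levels of miR-378a-3p in males. The levels of both arms and their ratio, by housing and by sex, are therefore given as a description, with no test. Tests are given for the make-up of the reads within an arm. Each share is a percent of the arm's summed reads in the same libraries, so these tests are not independent of the choice of the arms.

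The libraries came from 20 Sprague-Dawley rats, 5 in each of 4 groups. Socially isolated (SI) males and SI females lived alone for 6 weeks from weaning on postnatal day 21, and group housed (GH) males and GH females lived 3 to a cage over the same weeks. All rats were 9 weeks old, carried no transgene, and had been tested in an elevated plus maze on the day their tissue was taken, and each library held 1 rat. Cage mates were littermates of the same sex, and whether sequenced rats shared a cage is not given in the sources used here. The sequenced females had been selected for RNA integrity and for a range of estradiol levels. The RNA input was 215 ng, amplified by PCR for 22 cycles.

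The libraries held 3428930 to 11383055 miRNA reads each (median 6705043). The brain miRNAs miR-9a-5p, miR-128-3p, and miR-124-3p ranked 1, 7, and 16 of 500 by mean level and had reads in every library. For the SI rats I17M and I17F, labels and file names disagree on the sex. Both rats were placed by their labels, and values with the 2 libraries exchanged are given where they differ. The SI male I20M stood apart from its group in miR-378a-3p and in its choroid plexus miRNAs, as described with those values.

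MiRNA arms are cut from opposite sides of a hairpin, and in the cell 1 strand of the resulting duplex is usually kept in an Argonaute protein while the other is degraded. The kept strand pairs with messenger RNAs mainly through its seed, bases 2 to 8 from the 5′ end. MiR-378a is encoded within an intron of Ppargc1b, the gene of the coactivator PGC-1β, which controls mitochondrial and lipid metabolism genes, and miR-378a is itself best known from muscle, liver, and fat. In the annotation of the rat genome build GRCr8, the hairpin lay within Ppargc1b, on the same strand of chromosome 18. The mature sequences (RefSeq) are shown with the seed in capitals, since the forms described later differ from them at the ends and at single bases.
miR-378a-3p, 21 nt, chr18:57128925-57128945, minus strand: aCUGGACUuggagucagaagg
miR-378a-5p, 22 nt, chr18:57128962-57128983, minus strand: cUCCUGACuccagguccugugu
The longest run of complementary bases between the arms was 9 nt, from base 4 to 12 of miR-378a-5p and from base 9 to 17 of miR-378a-3p. None of the other mature rat miRNAs among 693 searched had the seed CUGGACU or the seed UCCUGAC, and the search did not include the related rno-miR-378b, whose sequence was not used here. MiR-378b had 334 reads in all and none in 6 libraries. All of them (100%) were also assigned to miR-378a-3p, so miR-378b was not measured on its own.

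MiR-378a-3p was the abundant arm. It had between 3207 and 20828 reads in all 20 libraries (median 8067), and miR-378a-5p had between 0 and 216 (median 28.5). Over all libraries, 3p reads were 201-fold as many as 5p reads, with 175988 against 874. As each sequencing read spans a whole mature miRNA, no correction for length was needed. On the scale of counts per 1e+06 miRNA reads after TMM normalization (CPM), miR-378a-3p had a mean of 1333 ± 517 (SD, n = 20) and ranked 85 of the 500 miRNAs tested. Its neighbours in that order were miR-212-5p, with 1348 ± 271 CPM, and miR-423-5p, with 1304 ± 384 CPM, both within the spread of miR-378a-3p. MiR-378a-5p ranked 385 of 500 with 6.75 ± 7.29 CPM (SD, n = 20).

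The level of miR-378a-3p was highest in SI males. In GH males it was 845 CPM in G16M, 900 in G19M, 821 in G18M, 1104 in G20M, and 1051 in G21M. In SI males it was 1982 CPM in I15M, 1413 in I19M, 1597 in I22M, 1683 in I17M, and 3118 in I20M. Every SI male lay above every GH male, with means of 1959 ± 680 and 944 ± 126 CPM (SD, n = 5 each), a ratio of 2.07. The edgeR log2 fold change was 1.05 (SE 0.21), and without I20M, the highest library, it was 0.75. In this comparison 4% of the 500 miRNAs passed an adjusted p of 0.05. That background is given only beside the values, since the comparison was used to choose the miRNA.

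In females the groups overlapped. GH females had 1125 CPM in G15F, 1183 in G12F, 914 in G16F, 1404 in G13F, and 1008 in G17F. SI females had 1283 CPM in I14F, 1131 in I10F, 1481 in I17F, 1427 in I12F, and 1188 in I16F. The means were 1127 ± 187 and 1302 ± 150 CPM (SD, n = 5 each), a ratio of 1.16, and the log2 fold change was 0.21 (SE 0.20). As a plain share of the miRNA reads, without TMM normalization, the female means per 1e+06 reads were 1219 in GH and 1213 in SI rats, so the female difference depended on that normalization. In this comparison 0.4% of the 500 miRNAs passed the threshold. The change in females was smaller than in males by 0.84 on the log2 scale (SE 0.29), given here without a test. By mean level the order was GH males, GH females, SI females, and SI males, and each group overlapped its neighbour in that order.

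**Figure D1:**
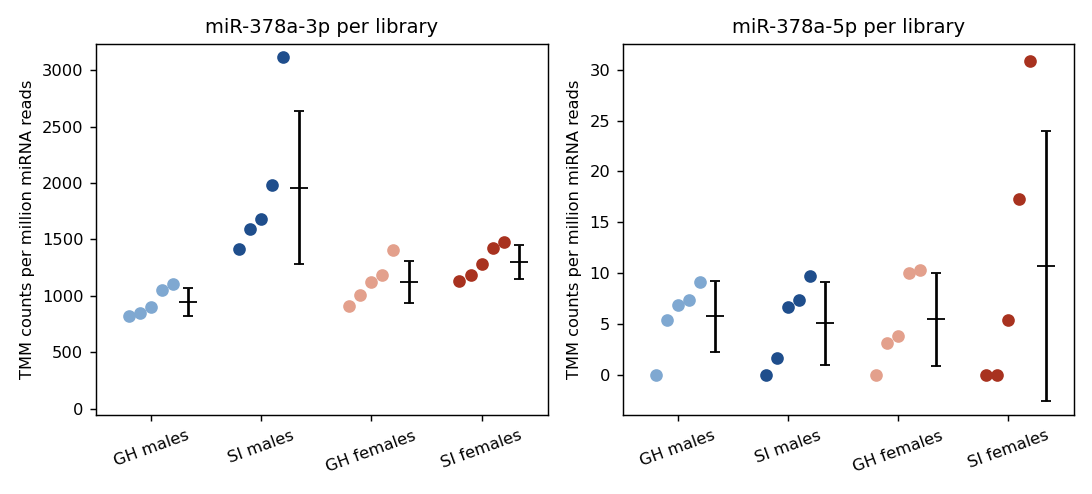
Level of miR-378a-3p (left) and miR-378a-5p (right) in CPM after TMM normalization, with 1 point per library, 5 libraries per group, and the mean ± SD beside the points. The SI males lie between 1413 and 3118 CPM of miR-378a-3p, above all GH males, and the 5p arm is at 0 in 5 libraries.

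The 2 sexes were also set side by side, in GH rats and in SI rats. In GH rats the log2 fold change of miR-378a-3p, females minus males, was 0.25 (SE 0.20). In SI rats it was −0.59 (SE 0.20), and without the SI male I20M it was −0.27. Of the 5 SI males, 1 rat, I19M, lay within the range of SI females and 4 lay above it. No miRNA passed the threshold between the sexes by edgeR (0% of 500 in GH and 0% in SI rats). At an unadjusted p under 0.05 there were 12 miRNAs in GH and 50 in SI rats, and DESeq2 called 5 in each. The GH males and SI males here are the libraries of the male housing comparison, whose summed counts chose the arm, so no p is given for it.

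**Figure D2:**
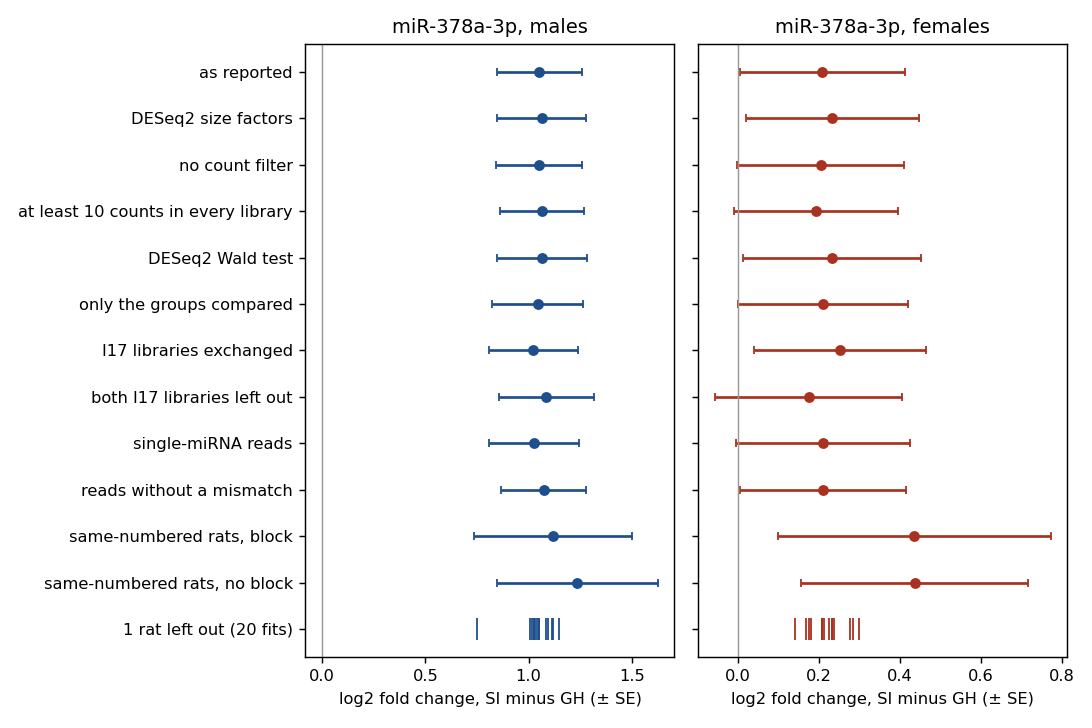
Log2 fold change of miR-378a-3p, SI minus GH, in males (left) and females (right), with its SE, under the reported setting (top) and each alternative, and with 1 rat left out in turn (ticks at the bottom). The male values with 1 rat left out run from 0.75, without I20M, to 1.15, and the female values from 0.14 to 0.30.

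MiR-378a-5p was near the limit of detection. GH males had 27, 0, 27, 61, and 75 reads in G16M, G19M, G18M, G20M, and G21M, and SI males had 77, 73, 30, 0, and 11 in I15M, I19M, I22M, I17M, and I20M. GH females had 0, 22, 64, 51, and 14 reads in G15F, G12F, G16F, G13F, and G17F, and SI females had 0, 36, 216, 0, and 90 in I14F, I10F, I17F, I12F, and I16F. Each of the 4 groups held at least 1 library with no listed 5p read. A sequence was listed from 2 reads, so a 0 does not show that the arm was missing. The log2 fold change, SI minus GH, was −0.18 (SE 1.44) in males and 0.97 (SE 1.45) in females. With the I17 libraries exchanged, these values were 0.96 and −0.27. Females minus males, it was −0.08 (SE 1.44) in GH and 1.07 (SE 1.46) in SI rats, and the SI value was −1.31 with the I17 libraries exchanged and −0.16 with both left out. With an SE of this size, a difference of several-fold could not be detected.

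The arm ratio, log2 of 3p over 5p reads with 0.5 added to each, had a median of 7.78 over the 20 libraries and a range of 5.58 to 14.6. The values above 12 all came from the 5 libraries without 5p reads, where the ratio depends on the added 0.5. In the SI male I20M, where miR-378a-3p was highest, the 5p arm had 1.68 CPM and made up 0.054% of the reads of both arms. In the SI female I17F it made up 2.04%, the highest share. Means were 8.19 ± 2.57 in GH males, 9.70 ± 3.06 in SI males, 8.86 ± 3.07 in GH females, and 9.54 ± 4.29 in SI females (SD, n = 5 each). Females minus males, the ratio differed by 0.66 in GH rats and by −0.17 in SI rats, both within the spread of a group. The SI difference was 3.44 with the I17 libraries exchanged and 2.05 with both left out.

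Most miR-378a-3p molecules were longer than the reference. Such variants of a miRNA, called isomiRs, arise in cells when the hairpin is cut at another position, which adds or removes bases of the hairpin (templated), or when enzymes add bases, often A or U, to the 3′ end. The 5 most read of 346 distinct 3p sequences are shown as DNA, with the bases past the reference 3′ end in capitals.
reference plus templated C: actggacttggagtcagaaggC
reference plus C and an added A: actggacttggagtcagaaggCA
reference: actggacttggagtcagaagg
reference plus an added A: actggacttggagtcagaaggA
reference plus 2 added A: actggacttggagtcagaaggAA
The form with the templated C made up 32.7% ± 2.6 of the 3p reads (SD, n = 20), from 28.0% to 37.6%. The next form, with C and A, made up 13.5% ± 2.6, the reference itself 10.7% ± 2.2, the form with A 9.97% ± 2.38, and the form with AA 4.69% ± 1.48 (SD, n = 20 each). Together the 5 forms held 71.6% of the 3p reads, and all 5 were read in every library. The templated C was present in 65.3% ± 5.2 of the 3p reads (SD, n = 20), whatever followed it. Among the 376 miRNAs with at least 1000 reads, miR-378a-3p ranked 4 by the share of reads whose only addition was A, with 38.5% of its pooled reads against a median of 5.84%. The authors' trimming also removed poly(A) tails, and its part in these shares was not tested. The 3′ end was shorter than the reference, with nothing added, in 1.34% of its pooled reads, rank 344 of 376. The 5′ end was moved in 8.83% of the pooled reads, which gives the molecule another seed. Nearly all such reads had lost the first base, 8.07% ± 1.23 of the 3p reads (SD, n = 20), and none of the other miRNAs in the same search, again without miR-378b, has the seed UGGACUU that results.

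For miR-378a-5p the sequence with the highest mean share was the reference, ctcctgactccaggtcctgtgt, with 41.1% ± 32.1 of the reads (SD, n = 15). It had reads in 12 of the 15 libraries with 5p reads, and was not the most read form in all of them. At most 6 distinct sequences were read in a library.

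The make-up of miR-378a-3p was compared between housing conditions within sex, over 7 kinds of change in each arm. Reads with only A added were 35.9% in GH males, 38.3% in SI males, 37.7% in GH females, and 40.0% in SI females, a difference of 2.35 percentage points between SI and GH rats (exact permutation test within sex, two-sided, p = 0.12, adjusted p = 0.31). Reads with a longer, templated 3′ end and nothing added were 40.0% in GH males, 36.9% in SI males, 39.2% in GH females, and 38.0% in SI females, a difference of −2.13 points (exact permutation test, p = 0.15, adjusted p = 0.31). The other 5 kinds differed by −0.97 to 0.82 points, and none of the 7 passed the threshold. For miR-378a-5p, the share with only A added was 0% in all 4 GH females with 5p reads and 65.0% in the 3 SI females with 5p reads, and 17.1% in GH males and 43.6% in SI males with 5p reads. The difference within sex did not pass correction over the 14 shares (exact permutation test, p = 0.0045, adjusted p = 0.063), and it rests on libraries with 11 to 216 reads. Between the sexes, none of the 14 shares passed the threshold by the exact permutation test, and 1 had an unadjusted p under 0.05, the longer 3′ end of miR-378a-5p (exact permutation test, p = 0.031, adjusted p = 0.43).

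**Figure D3:**
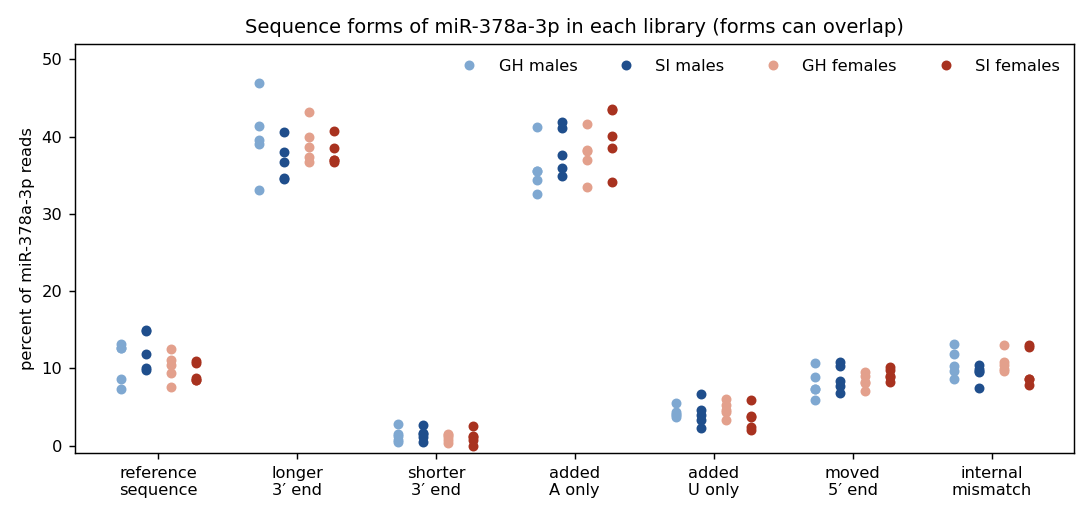
Share of miR-378a-3p reads, in percent, in each of 7 kinds of sequence, with 1 point per library and a color for each of the 4 groups. The longer 3′ end and the added A are the most read kinds in every library, and the groups overlap in all 7 kinds.

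MiR-378a-3p also carried more internal mismatches than most miRNAs, in 10.1% of its pooled reads against a median of 1.55%, rank 14 of 376. Of these reads, 83.8% had their mismatch at 1 of 2 positions, counted from 1 at the reference 5′ end. Both were G in place of the reference A, A16G and A6G, and A6G lies within the seed. The third most frequent mismatch, A1G, was in 0.35% of the 3p reads. Inosine, which editing enzymes make from adenosine in RNA, is read as G, and these reads were not compared with the rats' DNA here. The most read form of each is shown with the mismatched base in capitals.
A16G: actggacttggagtcGgaaggc
A6G: actggGcttggagtcagaaggc
No other mature rat miRNA searched has the seed CUGGGCU that A6G gives. A16G was present in 6.02% ± 1.24 of the 3p reads (SD, n = 20), and A6G in a mean of 2.70%, from 1.11% to 7.56%. Both were read in every library, and a read carries at most 1 recorded mismatch.

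The share of A16G was lower in SI than in GH rats. GH females had 8.05% in G15F, 6.86% in G12F, 6.67% in G16F, 7.47% in G13F, and 7.29% in G17F, and SI females had 4.74% in I14F, 6.06% in I10F, 4.90% in I17F, 6.28% in I12F, and 3.73% in I16F. Every SI female lay below every GH female. GH males had 7.96% in G16M, 7.25% in G19M, 5.96% in G18M, 5.71% in G20M, and 5.11% in G21M, and SI males had 4.99% in I15M, 4.83% in I19M, 4.51% in I22M, 5.21% in I17M, and 6.77% in I20M. The male groups overlapped. The difference within sex was −1.63 percentage points (exact permutation test, two-sided, p = 0.0018, adjusted p = 0.029 over 16 shares). It was −2.12 points in females (exact permutation test, p = 0.0079, the smallest that 5 against 5 libraries allow, adjusted p = 0.13) and −1.14 points in males (exact permutation test, p = 0.13, adjusted p = 0.69). Counting error was smaller than these differences in the lowest and highest libraries, with 95% Wilson intervals of 3.29% to 4.23% in I16F and 7.51% to 8.63% in G15F. The intervals were wider in GH males with fewer reads, 6.44% to 8.15% in G19M and 5.19% to 6.83% in G18M. These were at least as wide as the male and the within-sex differences, but not the female difference.

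The 2 positions were taken up after the mismatches had been counted, so this p is not that of a comparison set in advance. With only the sequences listed in all 20 libraries the difference was −1.01 points (exact permutation test, p = 0.035, adjusted p = 0.21), and with only sequences of at least 10 reads it was −1.31 points (exact permutation test, p = 0.0083, adjusted p = 0.080). Leaving out single rats kept it between −1.82 and −1.44 points, with an adjusted p from 0.0040 to 0.072. It was above 0.05 without G16M, I15M, I22M, G13F, or G17F, and was 0.078 with both I17 libraries left out. Between the sexes A16G differed by 0.38 points within housing (exact permutation test, p = 0.38, adjusted p = 0.83).

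For A6G no housing difference passed the threshold, and the sexes went opposite ways. Its share was 0.53 points higher in SI rats within sex (exact permutation test, p = 0.49, adjusted p = 0.61). The difference was −0.52 points in males (exact permutation test, p = 0.33, adjusted p = 0.69) and 1.59 points in females (exact permutation test, p = 0.33, adjusted p = 0.57). The SI females I16F and I12F had the highest shares, 7.56% and 5.03%, and the SI male I20M the lowest, 1.11%. The other 17 libraries lay between 1.35% and 3.50%. In I16F the A6G share was above the A16G share, the only library where this was so.

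**Figure D4:**
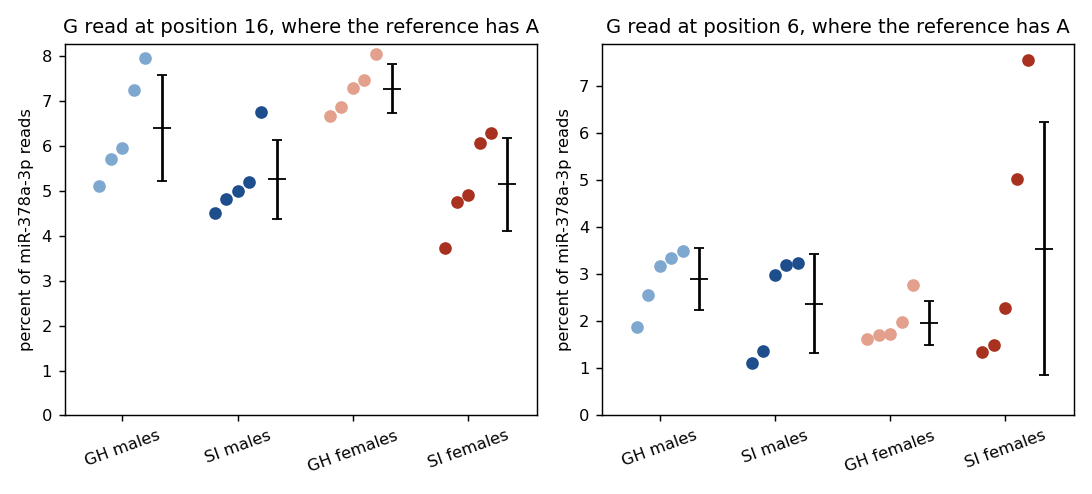
Share of miR-378a-3p reads, in percent, with G at position 16 (left) and at position 6 (right) in each library, with 5 libraries per group and the mean ± SD beside the points. At position 16 the SI females, 3.73% to 6.28%, lie below the GH females, 6.67% to 8.05%, and at position 6 the SI female I16F reaches 7.56%.

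Other miRNAs with known roles in energy metabolism were followed as a list of 23, of which 20 were tested and 3 had no reads. In males, 1 rose and 2 fell, which is 15% of those tested, against 4% of all 500. The list was chosen with earlier results of these data known, so the higher share and the p-values of its members are descriptions. The 20 include miR-378b, whose reads are also counted for miR-378a-3p. The median log2 fold change of the list was −0.47, against −0.01 over all 500. miR-34a-5p, which targets the deacetylase Sirt1, rose by 1.52 (SE 0.31, adjusted p = 0.0070 by edgeR). miR-181c-5p, which can enter mitochondria, fell by 1.77 (SE 0.45, adjusted p = 0.023 by edgeR), and miR-143-3p, a regulator of fat cell differentiation and insulin signaling, fell by 1.15 (SE 0.33, adjusted p = 0.045 by edgeR). The collagen-targeting miR-29a-3p, the next most counted by the rule for named miRNAs, had −1.03 in males (SE 0.34, adjusted p = 0.087 by edgeR) and −1.11 in females (SE 0.34, adjusted p = 0.084 by edgeR). In females none of the 20 passed by edgeR, against 0.4% of all 500. By edgeR 7 of the 20 had an unadjusted p under 0.05, against 104 of all 500. DESeq2 called 6 of the list, against 67 over all miRNAs. The female median was −0.52, against −0.13 over all 500. For miR-34a-5p, miR-181c-5p, and miR-143-3p the female values were −0.46, −1.41, and −0.83. With the I17 libraries exchanged, or both left out, 1 of the 20 passed in males.

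The miRNA whose level over the 20 libraries was most like that of miR-378a-3p was miR-25-3p, with a Pearson r of 0.85 and a Spearman rho of 0.84 between the log2 normalized counts. The next were miR-30c-2-3p, miR-152-3p, miR-505-3p, and miR-135a-3p, with r from 0.70 to 0.75. After the group means were subtracted, r with miR-25-3p was 0.61, and 3 of the 5 were still among the 5 most like. By Spearman's rho only miR-25-3p was. For miR-378a-5p the 5 most like, miR-1247-3p, miR-6324, miR-1193-3p, miR-466b-4-3p, and miR-466b-2-3p, had r from 0.52 to 0.63. Of the 5 libraries at 0 for miR-378a-5p, miR-1247-3p was at 0 in 4, miR-1193-3p in 2, miR-6324 in 0, and miR-466b-4-3p and miR-466b-2-3p in 1. The last pair had the same counts in every library and are 1 measurement. These are descriptions over the same libraries, whose depth the miRNAs share.

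Markers of other cell types were summed beside these values. In a punch of tissue, a change in the share of a cell type and a change within its cells cannot be told apart. The 4 blood miRNAs summed to 1007 to 1359 CPM in GH males and 1493 to 3117 CPM in SI males, and to 795 to 1456 and 1422 to 4036 CPM in GH and SI females. The log2 fold change, SI minus GH, was above 0 for 4 of the 4 in males and 2 of the 4 in females, none passed the threshold by edgeR, and miR-486 held 99.2% of the list's reads. The 3 oligodendrocyte miRNAs summed to 3809 to 6103 CPM in GH males and 5267 to 9304 CPM in SI males, and to 3626 to 6479 and 3976 to 10097 CPM in GH and SI females. In males miR-338-5p rose by 1.08 (SE 0.23, adjusted p = 0.011 by edgeR), and the values of miR-219a-2-3p and miR-338-3p were 0.45 (SE 0.27) and −1.18 (SE 0.68), neither past the threshold. The 7 choroid plexus miRNAs summed to 849 to 2455 CPM in GH males (median 998) and 1075 to 18227 CPM in SI males (median 1295), with the highest value in I20M. They summed to 1223 to 5245 and 848 to 4084 CPM in GH and SI females. MiR-204-5p had 314967 reads over all libraries and no other member more than 1074, so the sum is nearly that of 1 miRNA. Between SI and GH males, 3 of the 4 tested members were higher, with 1.85 for miR-204-5p (SE 0.69), a value that includes I20M. MiR-200b-3p was lower, with −0.68 (SE 1.34). In females 1 of the 4 was higher, and miR-204-5p had −0.48 (SE 0.67). None passed the threshold in either sex. The striated muscle list summed to 33.8 to 76.3 CPM in GH males, 15.1 to 50.5 CPM in SI males, and at most 125 CPM in any library, with no reads of miR-133b-3p, miR-208a-3p, or miR-208b-3p. Of its 4 tested members, 1 was higher in SI than in GH males, miR-1-3p, by 1.88 on the log2 scale (SE 0.88, adjusted p = 0.20 by edgeR). The others were lower, miR-133a-3p by −0.59 (SE 1.62), miR-206-3p by −0.48 (SE 1.12), and miR-499-5p by −1.53 (SE 0.95), and none passed the threshold. The 3 microglia miRNAs summed to at most 51.1 CPM, and the 3 brain miRNAs to 113163 to 176706 CPM in GH males and 108470 to 158389 CPM in SI males. The part of the blood, oligodendrocyte, muscle, and choroid plexus RNA in the level of miR-378a-3p was not tested.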

How the data were processed

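In the authors' bcbio-nextgen pipeline, cutadapt removed adapters, poly(A) tails, and low-quality ends, and seqbuster aligned the collapsed reads to rat miRBase v21. The tool versions are not given in the sources used here. The deposited values are raw counts of reads per distinct sequence and library, of at least 2 reads, with the assigned miRNA, its mismatch, its 3′ addition, and its end changes. Samples were grouped by the labels.

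Counts were summed per miRNA, and a read that matched several was counted for each. The 500 miRNAs with at least 10 counts in at least 5 libraries were tested with edgeR 4.0.16 (TMM, quasi-likelihood F test, 1 model of the 4 groups, R 4.3.3), with Benjamini-Hochberg adjustment over all 500 and a threshold of 0.05. DESeq2 1.42.0, the authors' tool, was an alternative. Shares were compared with exact permutation tests, two-sided, over 252 assignments in 1 sex and 63504 within both (smallest p 3.1e-05), adjusted over 14 shares (16 with A16G and A6G), and 5p shares used libraries with 5p reads. Both scripts were tested on simulated data. Python 3.11.15, pandas 2.3.3, numpy 2.4.6, and scipy 1.17.1 were used. Reads carry no molecular identifiers here, so intervals cover counting error only. The p-values set group differences against the spread between the rats sampled. They treat each rat as independent, and whether sequenced rats shared a cage is not given.

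Named miRNAs are both arms, miR-378b, the 5 most correlated with each arm, the 5 most read sequences per arm, and members of the metabolism list past the threshold in a housing contrast, filled up to 4 by counts. The members and lists were chosen with earlier results of these data known. Other settings were DESeq2's size factors, no filter, at least 10 counts in every library, 2 groups only, single-miRNA reads, reads without a mismatch, sequences in all libraries or with at least 10 reads, the I17 libraries exchanged or left out, a block of the animal number, each rat left out, and 1 added to the arm ratio, the last chosen after seeing the data.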

Additional observations from a re-analysis of the deposited data

Results flagged for a closer look

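In 48 groups of 5 libraries (12 measures of the arms in 4 groups), 4 held a library far from the other 4 of its group, and chance alone would give about 1 in 20. All 4 came from libraries without a listed 5p read. The GH male G19M and the GH female G15F had a log2 normalized count of miR-378a-5p of 0, where the nearest rats of their groups had 5.15 and 4.38. Their log2 arm ratios were 12.8 and 14.2, where the nearest rats had 7.27 and 8.30. A log2 value of 0 stands for no read, and the arm ratio holds the same reads, so these are 2 libraries and not 4 independent values.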

How the results depend on the processing

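The SI minus GH value of miR-378a-3p kept its sign in every edgeR and DESeq2 fit run, between 0.75 (without I20M) and 1.24 in males and between 0.14 and 0.44 in females. The means per 1e+06 reads without TMM normalization turned the female order, with 1219 in GH and 1213 in SI rats, and in males they were 985 and 1846. With rats left out, the male value was 0.75 to 1.15 on the log2 scale. The 5p arm had no stable sign. Females minus males, its value in SI rats was −1.31 with the I17 libraries exchanged and −0.16 with both left out, and in GH rats it ran from −0.45 to 0.24 with rats left out. The arm ratio in SI rats, females minus males, was 3.44 with the I17 libraries exchanged and 2.05 with both left out, and with rats left out it ran from −1.33 to 1.06, and from −0.67 to 1.81 in GH rats. With only sequences listed in all libraries, A6G in SI minus GH rats was −0.31 points and A16G in females minus males was −0.10 points. No 5p sequence was listed in all libraries, and no 5p value is given for at least 10 counts in every library.

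Of the metabolism list, 3 in males and 0 in females passed. At least 10 counts in every library gave 5 and 4, DESeq2 5 and 6, 2 groups only 8 in males, the I17 libraries exchanged 1 and 1, and both left out 1 in males. With rats left out, 1 to 8 passed in males (8 without I16F, and 1 without G16M, G18M, G19M, I15M, I17M, or I20M) and 0 to 7 in females (7 without I10F). With rats left out, 0 or 1 of the 14 isomiR shares passed (1 without I19M), the reference share ran from −0.11 to 0.64 points, and the shorter 3′ end from −0.046 to 0.31 points. Over all 500 miRNAs, 20 in males and 2 in females passed, against 60 and 67 by DESeq2, 40 and 40 with at least 10 counts in every library, 84 and 0 with 2 groups only, 11 and 5 with the I17 libraries exchanged, 13 and 0 with both left out, and 7 to 73 and 1 to 63 with rats left out.

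Animal numbers were shared by 2 pairs of males and 3 pairs of females, whose deviations had a mean correlation of −0.06 and −0.10. With so few pairs these values cannot show whether the numbers mark a pairing. With the number as a block in those rats only, the value of miR-378a-3p was 1.12 in males and 0.44 in females, that of miR-378a-5p 1.86 and 0.24, and 0 of the list passed in males, as with the same rats and no block (0). In males 2 miRNAs passed with the block and 1 without it.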
